A study of Mus musculus with 2 samples.

Results

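Gene deserts are long stretches of the genome with no protein-coding gene, and 3084 DNase I peaks of the mouse cerebellum that lie deep inside them were examined. A peak was taken when it was called in replicate 1, overlapped a peak of replicate 2 by at least 1 bp, lay 100 kb or more from every annotated protein-coding start and touched no protein-coding gene body. The 3084 peaks are 7.21% of the 42763 shared peaks on the 19 autosomes, and the whole replicate 1 list holds 60053 autosomal peaks. The peaks were chosen by being called in both libraries, so their overlap and the floor of their values are given as a description. Among the 5994 desert peaks of replicate 1, 51.5% were shared, beside 71.2% of all its autosomal peaks. Among the 20264 desert peaks of replicate 2, 15.2% were shared, beside 33.5% of its 127625 autosomal peaks. Nothing is read from these shares because the overlap is part of the choice.

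In DNase-seq the enzyme DNase I cuts DNA that is not wrapped in nucleosomes, and places with many cuts are called as peaks. Short protected stretches inside a peak, where a bound protein can keep the enzyme off, are called as footprints. Open sites far from genes are often enhancers or sites of CTCF, the zinc finger protein that anchors chromatin loops. Genes that control development are often flanked by wide deserts, and in the early postnatal cerebellum the outer layer holds dividing granule cell progenitors while Purkinje cells and glia mature.

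The series holds 2 libraries of cerebellum tissue taken from 4-day-old males of strain B6CASTF1/J, which are first-generation hybrids between B6 and CAST mice. Each label names 3 males, and the libraries are labelled as biological replicates 1 and 2 of this single group, so no condition was compared. The labels give the same donor entry for both libraries and name sequencing instruments for replicate 1 only. All sequence below is that of the reference genome, so alleles of the CAST parent are not shown.

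The peak value is the authors' normalised signal of each peak, and 99.9983% of values in replicate 1 are whole multiples of 0.00645, and all in replicate 2 of 0.00665, with a tolerance of 0.05 of that step. The depth in reads is unknown. If 1 step is 1 counted cut, the median gene-desert peak rests on 112 cuts in replicate 1, an exact 95% Poisson interval of 0.595 to 0.869 in value, and on 159 cuts in replicate 2, an interval of 0.90 to 1.24. These intervals cover counting error only. In bulk tissue, a site open in few cells and a site weakly open in many cells give the same value and cannot be told apart.

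The tissue label was checked at promoters. Of 6 granule cell and hindbrain genes, 4 had a promoter peak in replicate 1 and 5 in replicate 2. They include Zic1 and Neurod1, transcription factors of the granule lineage, and En2, a homeobox gene of the midbrain and hindbrain, while Barhl1 had none in either. All 3 Purkinje cell genes (Calb1, Car8 and Rora) had one in both replicates. The microglial genes Cx3cr1 and Csf1r, the liver gene Alb and the muscle gene Myod1 had none in either replicate. Emx1, a homeobox gene of the cerebral cortex, had a promoter peak in replicate 2 (1.41) and none in replicate 1, and its part in the replicate differences below was not tested.

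The desert is named here by the coding genes on its left and right. The strongest peak of 5 of the richest deserts is printed, since these deserts hold the most peaks to describe, from the plus strand of GRCm38 (mm10), the RefSeq copy. In each, capitals mark bases inside a footprint of either library.
Ubash3b-Sorl1, chr9:41474701-41474880: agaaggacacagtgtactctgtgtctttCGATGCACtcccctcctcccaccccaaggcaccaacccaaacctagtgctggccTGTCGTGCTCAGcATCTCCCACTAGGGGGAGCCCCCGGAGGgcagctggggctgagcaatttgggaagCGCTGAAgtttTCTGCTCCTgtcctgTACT
Olfr1507-Dad1, chr14:54059901-54060080: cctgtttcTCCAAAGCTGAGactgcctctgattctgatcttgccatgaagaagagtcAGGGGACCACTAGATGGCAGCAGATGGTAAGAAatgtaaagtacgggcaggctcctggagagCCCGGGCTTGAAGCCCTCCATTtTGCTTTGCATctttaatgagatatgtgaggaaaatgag
Auts2-Castor2, chr5:133885081-133885260: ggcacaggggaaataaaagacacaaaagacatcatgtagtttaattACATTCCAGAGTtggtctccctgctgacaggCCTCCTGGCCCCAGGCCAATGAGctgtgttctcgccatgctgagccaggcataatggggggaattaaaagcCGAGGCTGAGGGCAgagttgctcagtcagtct
Sox2-Atp11b, chr3:35574561-35574720: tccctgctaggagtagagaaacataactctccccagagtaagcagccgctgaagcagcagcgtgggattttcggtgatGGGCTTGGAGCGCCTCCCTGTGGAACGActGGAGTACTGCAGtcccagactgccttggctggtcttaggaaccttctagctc
Tle4-Psat1, chr19:15801941-15802140: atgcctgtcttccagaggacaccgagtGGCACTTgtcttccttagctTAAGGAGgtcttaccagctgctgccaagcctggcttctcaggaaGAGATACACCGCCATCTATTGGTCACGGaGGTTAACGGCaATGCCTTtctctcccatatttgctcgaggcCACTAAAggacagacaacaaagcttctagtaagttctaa

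Each is the peak with the highest mean percentile rank of its desert, and the Olfr1507-Dad1 peak has 2 matches in the genome. Footprints cover 40 of 160 bases between Sox2 and Atp11b and 77 of 180 bases between Olfr1507 and Dad1. The Olfr1507-Dad1 and Tle4-Psat1 sequences hold a relaxed form of the CTCF core on either strand. The Auts2-Castor2 sequence holds the homeobox letters TAATTA, which read the same on both strands, and the Ubash3b-Sorl1 sequence holds the E-box CAGCTG. That E-box, and all but the last letter of that TAATTA, lie outside the footprints.

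The 5 strongest gene-desert peaks by mean percentile rank over both replicates, and the strongest with an exact match of the CTCF core, are shown because they top the order of values.
Esp15-Esp38, chr17:39846781-39846900: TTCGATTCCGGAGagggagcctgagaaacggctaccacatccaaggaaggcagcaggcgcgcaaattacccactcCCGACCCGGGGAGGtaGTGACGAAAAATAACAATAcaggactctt
Gm31371-Gm15319, chr8:20122145-20122300: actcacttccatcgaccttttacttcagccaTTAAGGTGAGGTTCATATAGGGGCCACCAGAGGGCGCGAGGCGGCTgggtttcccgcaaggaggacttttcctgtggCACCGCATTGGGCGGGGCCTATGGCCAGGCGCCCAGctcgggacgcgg
Tmem161b-Ccnh, chr13:84347941-84348200: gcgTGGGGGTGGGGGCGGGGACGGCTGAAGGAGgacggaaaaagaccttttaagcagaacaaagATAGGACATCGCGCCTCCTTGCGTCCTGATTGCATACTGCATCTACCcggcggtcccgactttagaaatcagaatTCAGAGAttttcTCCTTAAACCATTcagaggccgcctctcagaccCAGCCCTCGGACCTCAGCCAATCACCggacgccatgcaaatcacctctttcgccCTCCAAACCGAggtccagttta
Gm8797-1700008P02Rik, chr3:5860361-5860492: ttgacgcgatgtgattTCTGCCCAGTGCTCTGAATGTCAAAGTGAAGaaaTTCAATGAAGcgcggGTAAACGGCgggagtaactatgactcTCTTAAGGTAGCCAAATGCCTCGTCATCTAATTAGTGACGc
Ddx18-Dpp10, chr1:122357141-122357300: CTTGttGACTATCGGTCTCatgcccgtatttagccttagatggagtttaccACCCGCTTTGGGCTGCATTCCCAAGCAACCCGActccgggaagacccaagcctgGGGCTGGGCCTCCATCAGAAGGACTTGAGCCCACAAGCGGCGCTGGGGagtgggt
Slc7a11-Noct, chr3:50906061-50906240: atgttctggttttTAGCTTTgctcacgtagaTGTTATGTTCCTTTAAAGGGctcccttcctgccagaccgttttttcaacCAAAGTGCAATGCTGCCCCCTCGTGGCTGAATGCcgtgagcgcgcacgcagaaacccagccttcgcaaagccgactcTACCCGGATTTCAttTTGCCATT

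The peak between Esp15 and Esp38, genes of exocrine gland secreted peptides, had 36.6 in replicate 1 and 40.2 in replicate 2. It overlaps a copy of ribosomal RNA sequence that GENCODE lists as CT010467.1, and the reference genome holds 2 matches to the peak, its own place counted. The Gm31371-Gm15319 peak had 12 in replicate 1 and 21.7 in replicate 2, with 5 matches in the genome, and the Gm8797-1700008P02Rik peak had 8.33 and 10.9 in replicates 1 and 2, with 10 matches. Of the 10 strongest peaks, 3 had 2 or more matches, where a match covers at least 90% of the peak at 95% identity or more.

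The other peaks among the 10 strongest had 1 match each in the reference by that rule. Copies that the reference lacks are not counted, so 1 match does not show that a sequence is unique. The Tmem161b-Ccnh peak, where Tmem161b also borders the desert beside Mef2c, a transcription factor of neurons, had 5.50 in replicate 1 and 12.5 in replicate 2. The Ddx18-Dpp10 peak, 789 kb from the nearest coding start, had 8.81 in replicate 1 and 10.6 in replicate 2. Likeness to ribosomal RNA outside annotated copies was not tested for it or for the Gm8797-1700008P02Rik peak. The Kif2a-Ndufaf2 peak had 4.66 in replicate 1 and 14.4 in replicate 2 and carried 9 footprints in each. It lies at the start of Zswim6, which RefSeq lists as a coding gene and GENCODE as a processed transcript, so the gene-desert rule kept it. Peaks between Chd7, a chromatin remodeller, and Clvs1 (5.40 and 9.37 in replicates 1 and 2), and between Slc4a3 and Epha4, an axon guidance receptor (4.74 and 9.43 in replicates 1 and 2), have no annotated non-coding start within 1 kb. The Zfat-Khdrbs3 peak (3.81 and 13.3 in replicates 1 and 2) and the Pcmtd1-Sntg1 peak (4.35 and 10.1 in replicates 1 and 2) do. In all, 5 of the 10 strongest peaks lie within 1 kb of a non-coding start.

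Shared gene-desert peaks were sparse for the space they had. The autosomes hold 737 Mb that lie 100 kb or more from a coding start and outside coding bodies, 30.8% of the sequenced autosomes, with 4.19 shared peaks per Mb. The other shared peaks were denser, at 14.7 per Mb in intergenic sequence 1 to 100 kb from a start, 11.5 per Mb in gene bodies and 313 per Mb within 1 kb of a start. The contrast was smaller when all peaks of a library were counted, shared or not. Deserts then held 8.13 per Mb in replicate 1 and 27.5 in replicate 2. Intergenic sequence 1 to 100 kb from a start held 22.0 in replicate 1 and 47.9 in replicate 2. Inside the deserts, the density of shared peaks was 7.35 per Mb (95% Poisson interval 6.87 to 7.86) at 100 to 150 kb from a start, 3.98 per Mb (3.68 to 4.31) at 300 to 500 kb and 0.884 per Mb (0.685 to 1.12) beyond 1000 kb. All replicate 1 peaks there numbered 12.2 per Mb at 100 to 150 kb and 4.38 beyond 1000 kb. All replicate 2 peaks numbered 38.9 and 11.3 per Mb at these distances. As a description, the share of replicate 1 peaks that replicate 2 also called was 60.2% at 100 to 150 kb, 52.2% at 300 to 500 kb and 20.2% beyond 1000 kb. The median replicate 1 value of shared peaks also fell, from 0.813 at 100 to 150 kb to 0.510 beyond 1000 kb. Nothing is read from these shares either, because the overlap is part of the choice.

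**Figure D1:**
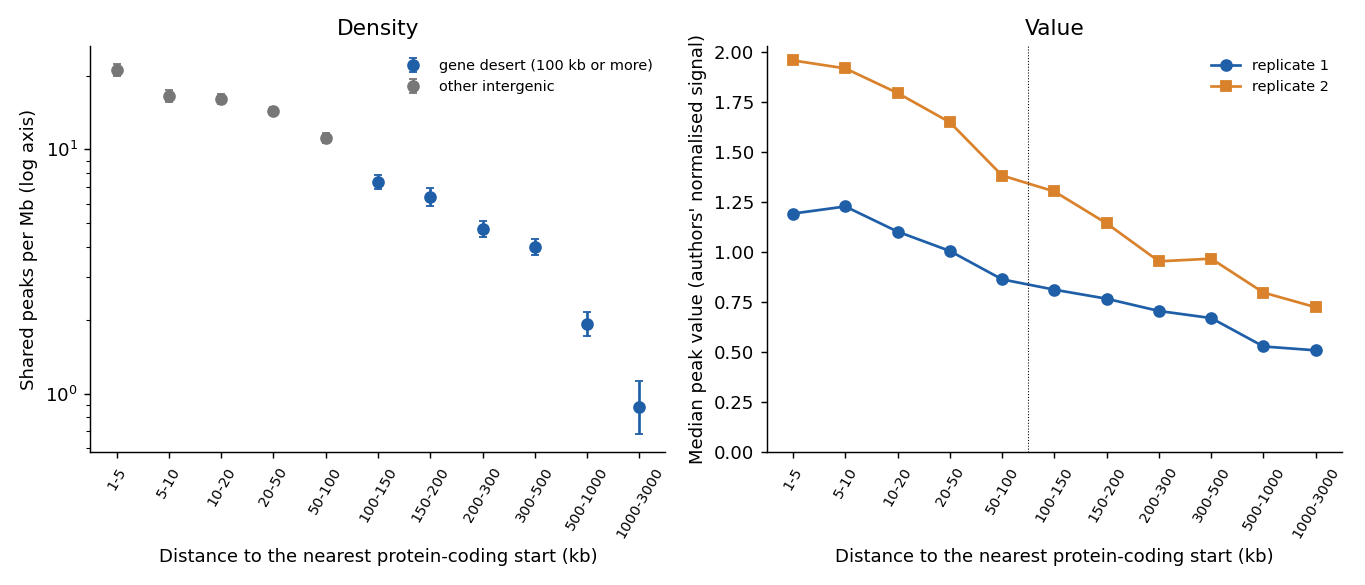
Left, shared peaks per Mb of intergenic sequence (log axis) by distance to the nearest coding start in kb, with exact 95% Poisson intervals; right, the median peak value in replicate 1 and replicate 2, the dotted line marking 100 kb. Density was 7.35 per Mb just past 100 kb and 0.884 per Mb beyond 1000 kb, and the medians fell in both replicates.

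The median distance from a gene-desert peak to its nearest coding start was 213 kb, with quartiles of 141 and 358 kb. On the other side the nearest start was a median of 554 kb away. At least 500 kb separated 376 peaks from any start, and at least 1000 kb separated 67. The farthest was 2464 kb from Pcdh20, in the desert between Pcdh20 and Pcdh9, which encode protocadherin adhesion proteins, at 0.529 in replicate 1 and 0.173 in replicate 2, and its 150 bp window is repeat throughout. The second farthest lay in the same desert at 2419 kb, with 0.303 in replicate 1 and 0.512 in replicate 2. The third, 2195 kb from Pik3c3, the catalytic subunit of the class III phosphoinositide kinase, had 1.42 in replicate 1 and 3.18 in replicate 2. Distance did not fix the value: a peak 2140 kb from Cdh20, a cadherin gene, had 5.87 in replicate 1 and 6.94 in replicate 2.

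At the 100 kb limit, the peaks just inside lay 100070 bp from Tmc1, a channel gene of hair cells (0.600 in replicate 1 and 0.419 in replicate 2), and 100088 bp from Klf3, a zinc finger repressor (1.11 in replicate 1 and 1.18 in replicate 2). Those just outside lay 99973 bp from Ppp1r12a, a subunit of myosin phosphatase (0.658 in replicate 1 and 0.466 in replicate 2), and 99959 bp from Irx4, an Iroquois homeobox gene (2.92 in replicate 1 and 2.26 in replicate 2).

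Values were low. Gene-desert peaks had a median of 0.722 in replicate 1 (quartiles 0.535 and 1.10, range 0.103 to 36.6) and 1.06 in replicate 2 (quartiles 0.565 and 1.94, range 0.0865 to 40.2). The medians of other shared peaks were 1.04 in replicate 1 and 1.70 in replicate 2 for near intergenic peaks, 0.948 in replicate 1 and 1.40 in replicate 2 for gene body peaks, and 1.37 in replicate 1 and 2.52 in replicate 2 for promoter peaks. The lower quartile to upper quartile ranges of desert and near intergenic peaks overlap in both replicates. The median percentile rank of gene-desert peaks among all shared peaks was 25.2 in replicate 1 and 30.3 in replicate 2. In the stricter peak list of each library, 47.6% of them were found in replicate 1 and 84.9% in replicate 2, and 45.1% stood in both, beside 62.6% of all shared peaks.

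**Figure D2:**
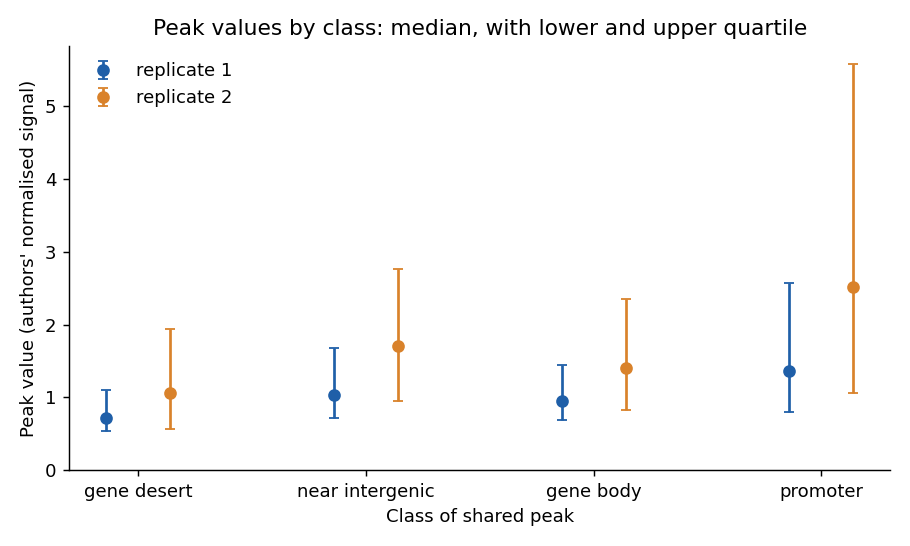
Peak value (the authors' normalised signal) of each class of shared peak in replicate 1 and replicate 2; points are medians and bars run from the lower to the upper quartile over peaks. Gene-desert peaks have medians of 0.722 in replicate 1 and 1.06 in replicate 2, the lowest of the 4 classes in both.

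The difference between the replicates was more spread at gene-desert peaks. At gene-desert peaks the median difference on the log2 scale (replicate 2 minus replicate 1) was 0.43, and over all shared peaks it was 0.63. Of the 3084 peaks, 2091 were higher in replicate 2 and 993 higher in replicate 1. The SD of the log2 difference over peaks was 0.86 for gene-desert peaks, 0.71 for near intergenic peaks and 0.66 for promoters. As a description, the log values of both replicates had a Pearson correlation of 0.709 across gene-desert peaks and 0.909 across promoter peaks, which share libraries and a normalisation. Once each replicate was divided by its median over all shared peaks, the gene-desert median was -0.27, so the direction depends on the scaling.

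Single deserts leaned different ways around that shift. Of the 78 deserts with at least 8 peaks, 64 had a median difference above 0 and 14 below, and the medians ran from -0.63 to 1.53. All 15 peaks between Auts2 and Castor2 were higher in replicate 2, as were all 10 between Sox9, a transcription factor of glia and their progenitors, and Slc39a11, and all 9 between Snrpn and Ndn, imprinted genes of the Prader-Willi region. In the Etaa1-Meis1 desert, beside a homeobox gene expressed in the granule lineage, 2 of 9 peaks were higher in replicate 2, and the desert median was 0.877 in replicate 1 and 0.526 in replicate 2. In the Ebf1-Clint1 desert, beside a transcription factor of developing neurons, it was 3 of 9, with medians of 0.884 in replicate 1 and 0.599 in replicate 2. Between Ttll7 and Adgrl2 it was 1 of 8. With 1 library a side these differences have no test, and these deserts were picked for their differences.

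At single peaks the gap was wider. A peak between Dnajc24 and Mpped2 had 2.12 in replicate 1 and 0.319 in replicate 2. A peak between Eno1b and Dtwd2 had 0.439 in replicate 1 and 3.73 in replicate 2, and a peak in the Auts2-Castor2 desert had 0.664 in replicate 1 and 4.54 in replicate 2.

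The peaks were spread over many deserts and were rich in few. The rule left 1715 deserts with some eligible space, and 1004 of them held a peak, 351 exactly 1, 200 at least 5 and 36 at least 10. The 10 richest held 156 peaks, 5.06% of all, in 1.33% of the eligible space, and the 100 richest held 30.9% in 14.9%. Across deserts, the number of peaks and the eligible length had a Spearman correlation of 0.587, given as a description. Deserts without a peak were short, with a median of 66 kb eligible, beside 362 kb for deserts with a peak.

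**Figure D3:**
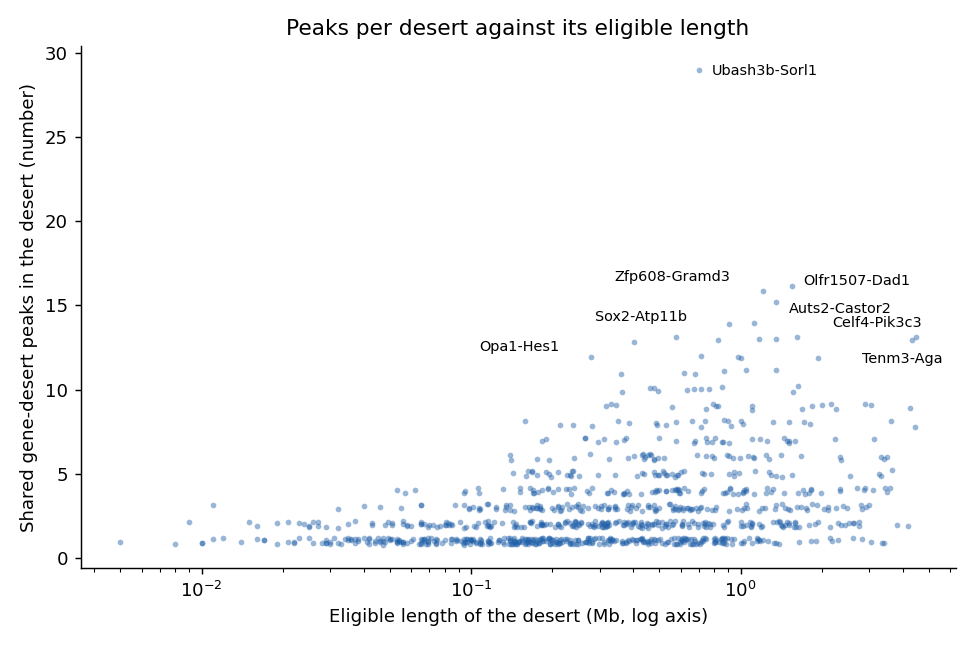
Number of shared gene-desert peaks in each of the 1004 deserts that hold any, against the length in Mb that met the rule (log axis); each point is a desert, moved slightly up or down for display. The Ubash3b-Sorl1 desert, with 29 peaks, stands apart from the next, with 16.

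The richest desert lies between Ubash3b, a phosphatase gene best known from T cells, and Sorl1, which encodes a sorting receptor for the amyloid precursor protein. Its 29 peaks run over chr9:41273566-41953860, at 41.3 per eligible Mb. Every one of the 29 replicate 1 peaks there was shared, while replicate 2 had 84 peaks in that desert. The 29 shared peaks had values from 0.445 to 3.86 with a median of 0.742 in replicate 1. In replicate 2 their values ran from 0.306 to 6.05 with a median of 1.82. In replicate 2, 26 of the 29 were higher. The long non-coding RNA gene 3110039I08Rik (chr9:41327077-41716994) covers 16 of them. Per Mb, the short Opa1-Hes1 desert was as dense, with 12 peaks at 43.2 per eligible Mb next to Hes1, a Notch target that keeps neural progenitors undifferentiated. Its values had a median of 0.777 in replicate 1 and 0.925 in replicate 2. Other short deserts reached such densities, among them Ubr2-Mrps10 with 8 peaks at 50.6 per eligible Mb and B3glct-Rxfp2 with 6 at 42.9.

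Next came 16 peaks between the olfactory receptor gene Olfr1507 and Dad1, a subunit of the oligosaccharyltransferase, a region that holds the T cell receptor alpha and delta segments. Their values ran from 0.297 to 4.86 with a median of 0.813 in replicate 1, and from 0.193 to 5.60 with a median of 1.26 in replicate 2. One peak there overlaps Trdc, the delta constant segment (0.890 in replicate 1 and 1.02 in replicate 2), and 3 others are repeat with 451, 186 and 112 matches in the genome, the last of which holds the highest replicate 1 value of the desert. Another 16 lay between the zinc finger gene Zfp608 and Gramd3, with medians of 0.610 in replicate 1 and 1.14 in replicate 2. Zfp608 was the nearest start of 20 gene-desert peaks, the most of any gene.

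Between Auts2, mutated in neurodevelopmental disorders, and Castor2, 15 peaks had medians of 0.632 in replicate 1 and 1.65 in replicate 2. Between Sox2, a transcription factor of neural stem cells, and Atp11b, 14 peaks had medians of 0.813 in replicate 1 and 1.26 in replicate 2. All 14 replicate 1 peaks there were shared, while replicate 2 had 52 peaks in that desert. Between Tle4, a Groucho corepressor, and Psat1, an enzyme of serine synthesis, 14 peaks had 0.597 in replicate 1 and 0.396 in replicate 2. Sdk2, a synaptic adhesion gene, and Rpl38, a ribosomal protein gene, enclosed 13 peaks (0.910 in replicate 1 and 1.44 in replicate 2). All 13 replicate 1 peaks there were shared, while replicate 2 had 39 peaks in that desert. Gfra2, the receptor for neurturin, enclosed 13 with Gm9195 (0.716 in replicate 1 and 0.745 in replicate 2).

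Other deserts with 13 peaks lay between Npvf, a neuropeptide gene, and Nfe2l3, between Kif2a, a microtubule depolymerase, and Ndufaf2, between Sall3, a zinc finger developmental gene, and Galr1, a galanin receptor, and between Myc, the growth-driving transcription factor, and Gsdmc. Medians were 0.929 in replicate 1 and 1.54 in replicate 2 in Kif2a-Ndufaf2, 0.858 in replicate 1 and 1.58 in replicate 2 in Npvf-Nfe2l3, and 0.703 in replicate 1 and 1.05 in replicate 2 in Myc-Gsdmc. In Sall3-Galr1 they were 0.684 in replicate 1 and 0.565 in replicate 2, and 4 of the 13 peaks were higher in replicate 2.

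Very wide deserts held as many peaks at far lower density. Between Celf4, a neuronal RNA-binding protein gene, and Pik3c3, 13 peaks were spread over 4318 eligible kb, 3.01 per Mb, with medians of 0.471 in replicate 1 and 1.18 in replicate 2. Between Tenm3, a teneurin of neural wiring, and Aga, a lysosomal enzyme gene, 13 were spread over 4468 eligible kb, 2.91 per Mb, with medians of 0.484 in replicate 1 and 0.652 in replicate 2. That is the widest desert with a peak in eligible length. In it, 13 of 40 replicate 1 peaks were shared, and in Celf4-Pik3c3 13 of 35. Replicate 2 had 78 peaks in Tenm3-Aga and 117 in Celf4-Pik3c3. Between Mki67, a gene of dividing cells, and Mgmt, a DNA repair gene, 12 peaks had a median of 1.22 in both replicates.

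Wide deserts could also be empty. Of 208 deserts with at least 1 Mb eligible, 19 held no shared gene-desert peak. The widest of them lay between Cox7c and Edil3 (2575 kb eligible, with 9 replicate 1 peaks and 12 replicate 2 peaks, none shared), between Lrfn5, a synaptic adhesion gene, and Fscb (2516 kb), between Ankrd7 and Kcnd2, a potassium channel gene (2149 kb), and between Tmprss15 and Ncam2, a neural adhesion gene (1909 kb).

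Deserts were then grouped by lists of their flanking genes. The 209 deserts flanked by a developmental transcription factor held 596 peaks, 6.29 per eligible Mb (95% Poisson interval 5.80 to 6.82), and 53 of them (25.4%) held at least 5 peaks. Over all 1715 deserts the density was 4.19 per Mb (4.04 to 4.34), and 11.7% held at least 5. The 142 deserts flanked by a cell adhesion or axon guidance gene held 384 peaks, 2.44 per Mb (2.20 to 2.69). Their eligible length was a median of 686 kb, beside 188 kb over all deserts, and density falls with distance from a start, so length moves with the list, and its part was not tested. Deserts flanked by granule lineage or hedgehog genes held 94 peaks, 8.14 per Mb (6.58 to 9.96), in 31 deserts. Those of other cerebellar neurons held 40, at 6.51 per Mb (4.65 to 8.86), and those of glial genes 25, at 7.79 per Mb (5.04 to 11.5). The 26 deserts flanked by olfactory or vomeronasal receptor genes held 27 peaks, 6.08 per Mb (4.00 to 8.84). Only 5 of the 26 held any. The Olfr1507-Dad1 desert alone held 16 of these peaks, and the desert between the start of chromosome 16 and Olfr161 held 6. The density is near that beside developmental transcription factors, where 145 of 209 deserts held a peak, but it rests on few deserts. The lists overlap, peaks within a desert are not independent, and the intervals cover counting only. Median values of peaks by list ran from 0.668 (adhesion genes) to 0.903 (olfactory receptors) in replicate 1 and from 0.725 (other cerebellar neurons) to 1.37 (glia) in replicate 2, beside 0.722 and 1.06 over all gene-desert peaks.

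The lists were also compared by the nearest coding start. It belonged to a developmental transcription factor for 268 peaks, 8.69% of them, while such starts are nearest to 6.68% of the eligible space. It belonged to an adhesion or guidance gene for 173 peaks, 5.61%, beside 12.2% of the space. Granule lineage and hedgehog genes were nearest to 1.20% of the peaks and 0.764% of the space, and glial genes to 0.454% of the peaks and 0.232% of the space. The shares were near equal for other cerebellar neurons, 0.422% of the peaks and 0.438% of the space, and for olfactory and vomeronasal receptors, 0.422% of the peaks and 0.400% of the space. In all, 1285 genes were the nearest start of at least 1 peak, among them Ubash3b with 17, Tmem161b with 14, Galr1 with 12, Tenm3 with 11 and Myc with 11.

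Gene-desert peaks lay farther from each other than the shared peaks of the other classes did. A neighbour of the same kind lay within 50 kb of 53.3% of them and within 10 kb of 29.6%. The median gap to the nearest neighbour was 42.7 kb (quartiles 6.71 and 171 kb), beside 15.4 kb between near intergenic shared peaks, 20.7 kb between gene body peaks and 0.440 kb between promoter peaks. Neighbours were counted within a class, and the order of the gaps is that of the densities per Mb given above. Wider gaps therefore do not show weaker clustering, and clustering relative to density was not tested. Joined at gaps of up to 10 kb, the gene-desert peaks formed 400 runs of at least 2 and 10 runs of at least 5.

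The tightest long run held 7 peaks in 2.56 kb between Ubr2, a ubiquitin ligase gene, and Mrps10, a mitochondrial ribosomal protein gene (chr17:47139221-47141780). Values ran from 0.600 to 2.40 in replicate 1 and from 1.14 to 8.33 in replicate 2. RefSeq places the coding gene Trerf1 over 4 peaks of that desert, where GENCODE calls it a processed transcript. A run of 6 peaks in 4.40 kb lay between Tmem161b and Ccnh (chr13:84345221-84349618), from 0.581 to 5.50 in replicate 1 and from 0.732 to 12.5 in replicate 2. Another 6 in 8.71 kb lay between Snx7 and Dpyd (chr3:118425821-118434528), from 0.426 to 1.51 in replicate 1 and from 0.572 to 2.02 in replicate 2. The weakest of these in replicate 1 overlaps Mir137, a microRNA gene of neurons. Runs of 5 in under 3 kb lay between 1700010I14Rik and Gm17728 (0.464 to 2.21 in replicate 1 and 0.851 to 4.17 in replicate 2) and between Zfp608 and Gramd3 (0.529 to 1.22 in replicate 1 and 0.798 to 2.99 in replicate 2).

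Deserts of coding genes are not free of other genes. A long non-coding RNA body covered 584 of the gene-desert peaks (18.9%), beside 14.9% of near intergenic shared peaks, and 218 (7.07%) lay within 1 kb of the start of such a gene. Peaks in these bodies had medians of 0.764 in replicate 1 and 1.17 in replicate 2, and those within 1 kb of a start 0.777 in replicate 1 and 1.33 in replicate 2. Outside the Ubash3b-Sorl1 desert, the bodies with the most peaks were Mir99ahg, the host of a microRNA cluster, with 9, and 2610035D17Rik beside Sox9 with 8. Outside any annotated gene body lay 2452 peaks (79.5%), with medians of 0.716 in replicate 1 and 1.04 in replicate 2. RefSeq coding bodies, predicted ones included, covered 70 of the peaks, and 37 lay within 1 kb of a RefSeq coding start, where values had medians of 0.755 in replicate 1 and 1.54 in replicate 2.

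Some peaks fall on enhancers tested in transgenic mouse embryos, the VISTA elements that RefSeq annotates. Of 125 such elements in the deserts, 25 held a gene-desert peak, beside 66 of 211 near intergenic elements with a shared peak. Of the 26 desert elements with hindbrain activity, 10 (38.5%) held a peak, and of the other 99, 15 (15.2%). In near intergenic sequence it was 27 of 58 (46.6%) with hindbrain activity and 39 of 153 (25.5%) others. The strongest such peak, in an element with midbrain activity between A1bg and Myc, had 3.82 in replicate 1 and 6.27 in replicate 2. An element with limb and eye activity in the Ubash3b-Sorl1 desert held 4 peaks, among them 2.77 in replicate 1 and 6.05 in replicate 2. An element active from the forebrain to the hindbrain between Mef2c and Tmem161b held a peak of 0.768 in replicate 1 and 1.86 in replicate 2. Between Sox2 and Atp11b, an element with hindbrain and midbrain activity held 2 peaks. The tests were made in embryos and the libraries are of 4-day cerebellum, so age and tissue differ.

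Footprints were found in most gene-desert peaks. A replicate 1 footprint lay in 2642 of them (85.7%), beside 88.0% of all shared peaks, and a replicate 2 footprint in 2601 (84.3%), beside 86.1%. In 1934 peaks (62.7%) a footprint of replicate 1 overlapped a footprint of replicate 2. That share was 78.8% for near intergenic peaks, 74.1% for gene bodies and 64.0% for promoters. Gene-desert peaks held a mean of 1.65 footprints in replicate 1 and 2.07 in replicate 2, with a median length of 9 bp in replicate 1 and 10 bp in replicate 2, and 176 held none. Footprints of at least 25 bp made up 10.7% of those in gene-desert peaks in replicate 1 and 12.5% in replicate 2, beside 15.4% and 17.0% of those in near intergenic peaks, in replicates 1 and 2.

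Footprint calls followed the peak value. In the lowest quintile of value over all shared peaks, which took in 1359 gene-desert peaks in replicate 1, 71.9% of them had a replicate 1 footprint, beside 71.8% of near intergenic peaks and 72.1% of gene body peaks. In the second quintile it was 93.0%, beside 91.7% and 89.4%, and in the highest all 178 gene-desert peaks had one. In replicate 2 the lowest quintile gave 67.3% for gene-desert peaks, 73.7% for near intergenic and 72.5% for gene body peaks, and the third gave 96.9%, 96.7% and 97.2%. The lowest quintile took in 44.1% of gene-desert peaks and 20.2% of near intergenic peaks in replicate 1, and 39.0% and 19.1% of them in replicate 2.

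**Figure D4:**
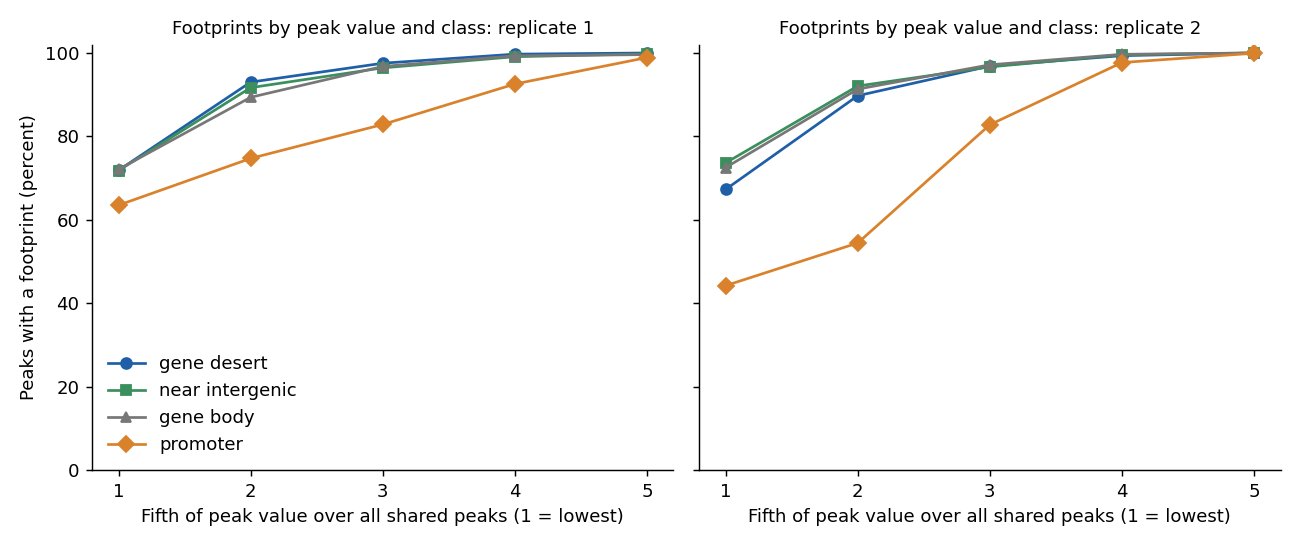
Percent of shared peaks with a footprint of the same replicate, by quintile of peak value over all shared peaks, for gene-desert, near intergenic, gene body and promoter peaks; replicate 1 left and replicate 2 right. The lines rise with value, from 71.9% to 100% for gene-desert peaks in replicate 1, and those of the 3 classes away from promoters run close together.

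The DNA of gene-desert peaks differed from that around them. In 150 bp windows at the peak middle, the GC content had a median of 53.3%, beside 54.7% for near intergenic peaks, 55.3% for gene bodies and 39.3% for 14738 desert windows on a regular grid. Soft-masked repeat filled at least 50% of the window in 2.72% of gene-desert peaks, beside 33.1% of desert grid windows. The share was also low in near intergenic peaks (3.08%) and gene body peaks (2.54%), so it does not set gene-desert peaks apart from these. Most peaks had 1 match in the genome, and 119 had 2 or more and 32 at least 5. Those 32 had medians of 0.577 in replicate 1 and 0.545 in replicate 2, a median difference of -0.68 on the log2 scale (replicate 2 minus replicate 1), beside 0.44 for the 2939 peaks with 1 match.

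The windows were searched on both strands for the short sequences that factor families prefer. The 12-letter core of the CTCF sequence, with 2 free positions, stood in 113 gene-desert windows (3.66%), beside 3.64% of all shared peaks, 6.39% of other shared peaks away from promoters and 0.0204% of grid windows. The relaxed core, with 2 further positions free and so taking in the full core, stood in 504 (16.3%), beside 25.9% of the other distal shared peaks and 0.407% of grid windows. The shorter piece AGGGGGC, which the full core contains, stood in 9.21% of gene-desert windows and 14.1% of the others.

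CTCF matches were more frequent at higher peak values. In the lowest quintile of replicate 1 values the relaxed core stood in 8.09% of gene-desert windows and 12.4% of other distal windows. In the third it stood in 24.7% of gene-desert windows and 26.7% of the others, in the fourth in 35.8% of gene-desert windows and 38.0% of the others, and in the highest in 28.7% of gene-desert windows and 41.0% of the others. Gene-desert peaks with the relaxed core had medians of 1.07 in replicate 1 and 1.79 in replicate 2, against 0.684 and 0.958 in replicates 1 and 2 without it. When the whole peak was searched, a footprint overlapped the relaxed core in 88.1% of peaks that held it in replicate 1 and 89.7% in replicate 2. The Slc7a11-Noct sequence printed above is the strongest gene-desert peak with the exact core, at 5.28 in replicate 1 and 7.28 in replicate 2.

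Other letters were more frequent in gene-desert windows than in other distal ones. The nuclear factor I site TTGGCA stood in 626 gene-desert windows (20.3%), beside 14.3% of the others and 7.67% of grid windows. In the lowest quintile of replicate 1 values it stood in 22.4% of gene-desert windows and 18.8% of the others, in the third in 18.5% of gene-desert windows and 13.6% of the others, and in the fourth in 15.9% of gene-desert windows and 11.3% of the others. Nuclear factor I proteins act in granule neuron maturation and in glia. The E-box CAGCTG stood in 19.7% of gene-desert windows, beside 15.4% of the others and 4.40% of grid windows, and the E-box CAGATG, which Atoh1 and Neurod1 prefer, in 617 windows (20.01%), beside 15.9% and 11.1%. A footprint overlapped CAGATG in 29.1% of the peaks that held it in replicate 1 and 32.8% in replicate 2, and TTGGCA in 30.1% of the peaks that held it in replicate 1 and 46.2% in replicate 2.

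The highest ratio was that of the TCF and LEF letters ATCAAAG, in 66 windows (2.14%), beside 1.36% of other distal windows. The full nuclear factor I site, which can overlap the short site, stood in 6 (0.195%), beside 0.137%. The homeobox letters TAATTA stood in 2.30%, beside 1.67%, the forkhead letters TGTTTAC in 1.75%, beside 1.28%, and the Sox letters ACAATGG in 2.27%, beside 1.69%. All of these except the nuclear factor I site were more frequent in grid windows, at 3.56%, 6.30%, 2.39% and 3.05% in that order, which are richer in A and T. The lowest ratios were those of MEF2, in 0 gene-desert windows and 0.0391% of other distal windows, NRF1 and GLI (GACCACCCA). NRF1 stood in 2 gene-desert windows (0.0649%), beside 0.186%, and GLI in 3 (0.0973%), beside 0.196%. These counts are too small to read a ratio from. Gene-desert windows with a Zic match (CAGCAGG) made up 13.3%, beside 14% of other distal windows and 2.36% of grid windows. The differences have no test, and GC content, which also differs, was not matched.

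**Figure D5:**
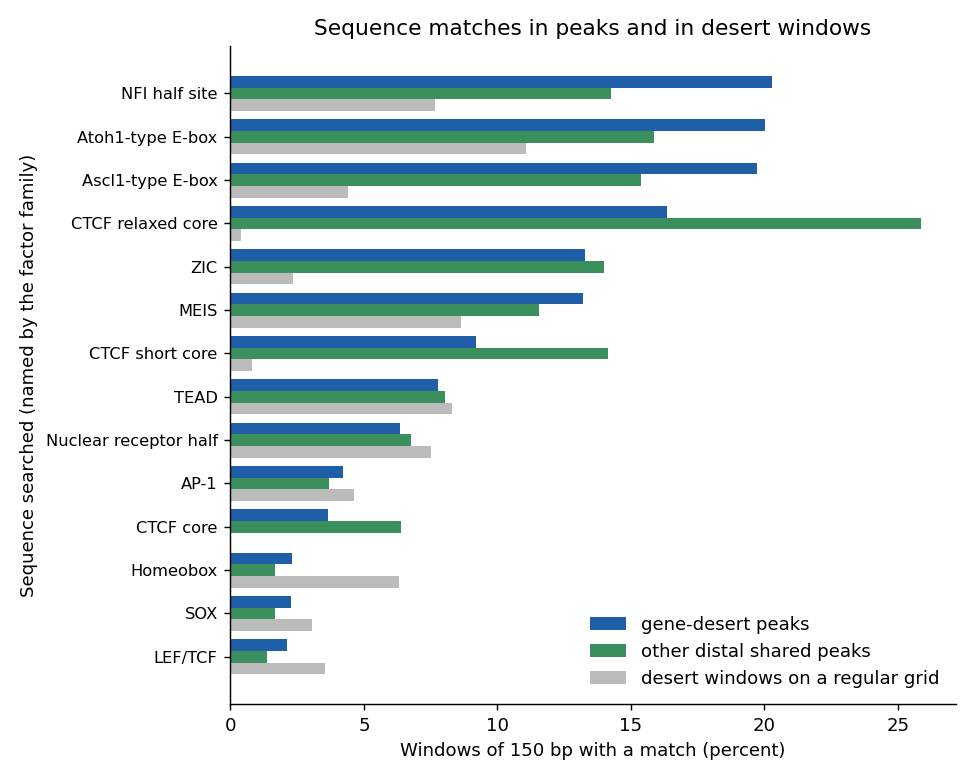
Percent of 150 bp windows with a match on either strand, for gene-desert peaks, other shared peaks away from promoters and desert windows on a regular grid, for the sequences found in at least 2% of gene-desert windows. The relaxed CTCF core stands in 16.3% of gene-desert windows and 25.9% of other distal windows, and the short nuclear factor I site in 20.3% and 14.3%.

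For 9 further sequences the share in gene-desert windows was 0.939 to 1.25 times that in other distal windows. They were the POU letters ATGCAAAT and ATGNATAT, the RFX letters GTTGCCAT, TGACAG of the MEIS factors, TGANTCA of AP-1, the palindrome of the EBF factors, TTCAGCACC of REST, GGAATG of the TEAD factors and the nuclear receptor letters AGGTCA. The promoter-type letters GGGGCGGGG of SP and KLF factors stood in 1.33% of gene-desert windows and 1.94% of other distal windows, and TGACGTCA of CREB in 0.259% and 0.450%. A match is a description of letters, and no match says nothing about a factor.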

How the data were processed

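DNase-seq of cerebellum was analysed in 2 libraries of 1 group, so no test between conditions was made. The deposited peak lists hold the authors' normalised signal, the deposited cut-rate intervals a false discovery rate (an adjusted p-value) with a limit of 0.05, and the deposited footprints the same p-value-type entry of 0.01 on every line, so only footprint positions were used. The build is mm10, per the labels. For the callers of peaks and footprints and for the normalisation factor, names and versions are not given. No peak summit is given that differs between lines, so the peak middle was used.

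Peaks were intersected with bedtools 2.31.1, and distances were measured to protein-coding genes of GENCODE M21 (GRCm38.p6). A peak of replicate 1 took the value of the strongest peak of replicate 2 that it overlapped. Matches in the genome were found with minimap2 2.31 (up to 500 secondary alignments). Eligible space was counted on a grid of 1000 bp. Sequences and the tested enhancer elements are from RefSeq. The overlap and distance steps were tested on simulated peaks. Summaries used Python 3.11.15 with pandas 2.3.3, numpy 2.4.6 and scipy 1.17.1, and figures used matplotlib 3.10.9.

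The peaks and all gene and sequence lists were chosen with earlier results of these data known. Genes were named by rule: those flanking the 15 deserts with the most peaks, the 10 strongest peaks, the 5 tightest runs, the widest desert, the 3 farthest peaks and the peaks at the 100 kb limit. Sequences from chromosome 18 were not printed. Other deserts and peaks that are named were chosen after their values were seen. Alternatives varied the distance, peak list, overlap, annotation, scaling, motif and replicate. A marker gene that was looked at is not reported here. Chromosomes X and Y were left out, and intervals cover counting error only.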

Additional observations from a re-analysis of the deposited data

How the results depend on the processing

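The 3084 gene-desert peaks became 5162 at a distance of 50 kb, 1636 at 200 kb, 1386 with the stricter peak lists, 406 with starts and bodies of all annotated genes, and 5994 to 20264 with either replicate left out. Their share of shared peaks, 7.21%, became 12.1%, 3.83%, 5.16% and 0.949% under the first 4 of these, 5.70% with equal numbers of the strongest peaks, 6.71% with RefSeq coding genes too, and 9.98% to 15.9% with a replicate left out. The median log2 difference of 0.43 (replicate 2 minus replicate 1) reversed to -0.27 after division by the median over all shared peaks. Its direction thus depends on that scaling, and it was 0.43 to 0.57 otherwise. The footprint share of 85.7% was 84.3% without replicate 1 and 62.7% where footprints of both replicates had to overlap. The share with a neighbour, 53.3%, was 29.6% within 10 kb, 66.5% within 100 kb and 36.2% with the stricter lists. The share in the 10 richest deserts, 5.06%, was 3.43% with deserts bounded by all annotated genes and 6.42% with the stricter lists. The CTCF share of 3.66% was 9.21% with the shorter core and 16.3% with the relaxed core. The causes were not tested. The alternatives with RefSeq genes, single-copy peaks and the relaxed core were chosen after seeing the data. No paired analysis was possible because both libraries belong to 1 group. Depth in reads is unknown, so the weakest values, 0.103 in replicate 1 and 0.0865 in replicate 2, cannot be given a firm interval.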

Other observations

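Desert peaks called in 1 replicate alone were counted beside other classes. The 2910 desert peaks of replicate 1 that met no peak of replicate 2 had a median value of 0.335, beside 0.258 for near intergenic and 0.277 for gene body peaks of replicate 1 alone. Of them, 98 (3.37%) held an interval of replicate 2 with a false discovery rate under 0.05, beside 6.11% of the near intergenic and 4.44% of the gene body peaks. The 17183 desert peaks of replicate 2 that met no peak of replicate 1 had a median of 0.359, beside 0.492 for near intergenic and 0.499 for gene body peaks of replicate 2 alone. Of them, 317 (1.84%) held such an interval of replicate 1, beside 3.31% of the near intergenic and 2.91% of the gene body peaks.

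Small genes lay under a few gene-desert peaks. Besides Mir137, the microRNA genes Mir344g (0.787 in replicate 1 and 1.28 in replicate 2), Mir344f (0.510 in replicate 1 and 0.652 in replicate 2) and Mir344i (0.497 in replicate 1 and 0.592 in replicate 2) each lay under a peak between Snrpn and Ndn. The immunoglobulin segment Ighv11-1 lay under a peak of 3.21 in replicate 1 and 1.53 in replicate 2, which has 3 matches in the genome.

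By chromosome, gene-desert peaks numbered from 3.12 per eligible Mb on chromosome 3 to 6.11 on chromosome 9, which holds the Ubash3b-Sorl1 desert.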
